A study of Mus musculus with 108 samples.

Results

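Cholesterol and fatty acids are both built from acetyl-CoA, and the genes of the 2 routes were compared here among 6 inbred mouse strains in 6 organs. The 39 listed genes were taken by name: enzymes that build the sterol ring, enzymes that make, lengthen and desaturate fatty acids, and the transcription factors, retention proteins and carrier that adjust them. Of these, 38 were measured among the 18193 genes tested, namely 17 sterol enzymes, 15 fatty acid genes and 6 regulators, and Acat2 was not analysed here. Each gene was read from its brightest probe set that names no other gene, by mean log2 signal over all arrays. The rule that names the genes uses no measured difference between strains.

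The series set the strains against one another in the same organs of males of 11 to 14 weeks. The strains were A/J, DBA2/J, 129S2, C3HeB/FeJ, AKR/J and C57BL/6J, with no transgene, deletion or treatment named in the labels, and C57BL/6J is an inbred strain like the others, not a control. Brain, heart, kidney, liver, lung and testis were each hybridised on 3 arrays per strain, which gives 18 arrays per organ. An array is named here by strain, organ and the animal number in its title. The C57BL/6J arrays of kidney, liver and testis carry other animal numbers than those of brain, heart and lung, and the 129S2 numbers differ in part. Between these groups of organs, a change of organ cannot be told apart from a change of animals in C57BL/6J. The titles name single animals, 22 in total, while the labelling protocol speaks of pools. For 4 arrays of 129S2 (3 of brain and 1 of kidney) the source name gives another animal number than the title, and the title's number was used. If arrays are not separate animals, the p-values measure only the spread between these preparations, which may then be technical. Mice of an inbred strain are near-identical genetically. The 129S2 mice came from another supplier (Charles River) than the other strains (Jackson Laboratory), and strain and supplier cannot be told apart for 129S2.

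Cells hold these genes under a feedback loop. When sterols in the endoplasmic reticulum fall, SCAP carries the SREBP transcription factors to the Golgi for cleavage, whereas INSIG proteins hold them back when sterols are plentiful. SREBP-2, the product of Srebf2, mainly drives the sterol enzymes, and SREBP-1c from Srebf1, together with the glucose-responsive factor ChREBP from Mlxipl, mainly drives the fatty acid genes. Liver is a main site of both routes, testis and other steroid-making organs use cholesterol as a precursor, lung uses lipid for surfactant, and brain makes its own cholesterol, much of it for myelin.

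The promoter sequences of 5 members are shown because their results recur below: Hmgcs1, Idi1, Cyp51 and Hsd17b7 for the sterol enzymes and Fasn for the fatty acid genes, picked after their values were seen. Each line runs 5′ to 3′ on the gene's own strand from 250 bases before to 50 bases after the RefSeq start, mouse build GRCm38.p6. Capitals mark 3 motifs searched on both strands: the sterol regulatory element TCACNCCAC, the CCAAT box (CCAAT, or ATTGG on the other strand) and the E-box CACGTG. The positions are chr13:119690101-119690400 (+ strand) for Hmgcs1, chr13:8885356-8885655 (+) for Idi1, chr5:4104648-4104947 (-) for Cyp51, chr1:169969156-169969455 (-) for Hsd17b7 and chr11:120824498-120824797 (-) for Fasn.
Hmgcs1: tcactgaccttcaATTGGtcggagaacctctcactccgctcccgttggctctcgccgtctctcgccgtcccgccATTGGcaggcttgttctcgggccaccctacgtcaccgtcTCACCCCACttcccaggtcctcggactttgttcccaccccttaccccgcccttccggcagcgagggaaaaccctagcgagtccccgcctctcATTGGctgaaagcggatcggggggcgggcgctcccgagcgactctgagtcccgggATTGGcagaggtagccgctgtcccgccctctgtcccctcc
Idi1: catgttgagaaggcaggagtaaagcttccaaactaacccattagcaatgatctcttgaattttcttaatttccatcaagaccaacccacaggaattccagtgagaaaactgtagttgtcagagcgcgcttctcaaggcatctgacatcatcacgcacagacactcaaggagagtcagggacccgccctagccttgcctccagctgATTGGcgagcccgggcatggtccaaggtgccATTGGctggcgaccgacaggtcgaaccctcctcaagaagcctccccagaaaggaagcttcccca
Cyp51: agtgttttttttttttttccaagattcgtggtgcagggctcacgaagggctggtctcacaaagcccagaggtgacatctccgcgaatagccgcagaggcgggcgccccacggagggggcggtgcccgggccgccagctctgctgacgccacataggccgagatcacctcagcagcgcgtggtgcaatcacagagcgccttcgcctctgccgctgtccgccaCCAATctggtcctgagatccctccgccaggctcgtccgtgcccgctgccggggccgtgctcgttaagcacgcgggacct
Hsd17b7: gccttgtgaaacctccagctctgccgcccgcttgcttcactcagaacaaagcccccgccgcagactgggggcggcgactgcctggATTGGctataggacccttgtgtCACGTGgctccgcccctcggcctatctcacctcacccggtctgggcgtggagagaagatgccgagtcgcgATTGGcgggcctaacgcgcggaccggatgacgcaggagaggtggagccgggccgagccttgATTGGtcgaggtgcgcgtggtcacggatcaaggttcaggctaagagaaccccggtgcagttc
Fasn: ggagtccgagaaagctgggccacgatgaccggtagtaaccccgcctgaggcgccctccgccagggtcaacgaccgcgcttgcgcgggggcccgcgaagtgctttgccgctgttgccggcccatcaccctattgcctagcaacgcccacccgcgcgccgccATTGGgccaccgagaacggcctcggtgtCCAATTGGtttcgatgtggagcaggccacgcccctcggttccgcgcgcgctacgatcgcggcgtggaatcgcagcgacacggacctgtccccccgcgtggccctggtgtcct

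In the Hmgcs1 window the element TCACCCCAC starts at -137, counted from the first transcribed base, and boxes on the reverse strand start at -237, -176, -45 and 11. In the Fasn window a CCAAT box at -62 overlaps an ATTGG at -59. The Hsd17b7 window holds an E-box at -143. Of the 38 measured members, 31 had a RefSeq window. All 14 sterol enzymes with a window held a CCAAT box in at least 1 window, as did 9 of 12 fatty acid genes. By window, a CCAAT box stood in 82.4% of 17 sterol enzyme windows and 64.3% of 14 fatty acid gene windows, against 37.4% of all 32851 promoter windows. The strict sterol element letters stood in 1.24% of all windows and, among members, in 1 window each of Hmgcs1 and Mlxipl. The E-box stood in 14.6% of the 41 member windows, against 7.15% of all windows. A match describes these letters and is no evidence of a bound factor.

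Values are log2 signals, so that a difference of 1 is a factor of 2. The median signal of an array ran from 4.95 in a liver to 6.83 in a lung and varied little within an organ (5.79 to 5.90 in kidney, the widest range), so strains were compared within an organ. Defining markers fitted the labelled organs: the mean of a hepatocyte list was 13.99 in liver, of a proximal tubule list 12.95 in kidney, of an alveolar type 2 list 13.84 in lung, of a germ cell list 13.64 in testis, of a cardiomyocyte list 13.52 in heart and of a neuron list 11.52 in brain. Over 12098 brain genes, the array labelled 129S2 brain 2 correlated with the AKR/J arrays at 0.515 to 0.583 and with its own strain at 0.192 to 0.206, and the array labelled AKR/J brain 2 with the 129S2 arrays at 0.50 to 0.583 and with its own strain at 0.198 to 0.233. Both go against their labels, so the brain gene differences of these strains are given with and without them. The brain correlations over strain means and with marker lists are given only with them. Heart 129S2 3 also correlated best with an array of another strain, and lung C3HeB/FeJ 3 stood apart in its adipocyte list, at 9.83 against 8.67 on the next array, and in its skeletal muscle list, at 9.92 against 6.50. In whole organs, fewer cells of a type and less RNA per cell cannot be told apart, and a base difference between strains under a probe could also change a signal.

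Strain differences among the members were widespread in kidney, where 35 of 38 passed the limma F test across the 6 strains at an adjusted p under 0.05, against 46.1% of all genes. The other organs gave 24 members in liver against 31.6% of all genes, 24 in testis against 40.5%, 22 in lung against 32.5%, 19 in brain against 23.1% and 11 in heart against 21%. Split by route, the sterol enzymes called were 16 of 17 in kidney, 14 in lung, 11 in testis, 10 in liver, 4 in heart and 8 in brain. Fatty acid genes called were 14 of 15 in kidney, 11 in liver, 11 in testis, 9 in brain, 6 in heart and 5 in lung. The median range between the highest and the lowest strain mean was 0.78 over members and 0.26 over all genes in liver. It was 0.64 over members and 0.28 over all genes in kidney. Brain had 0.25 over members and 0.19 over all genes, and heart had 0.46 and 0.28. Members had a higher median signal than all genes in each organ, for example 10.67 against 5.91 in liver, and the part of signal level in these shares was not tested. Without the 2 brain arrays that go against their labels, 22 members passed in brain, against 27.5% of all genes.

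**Figure D1:**
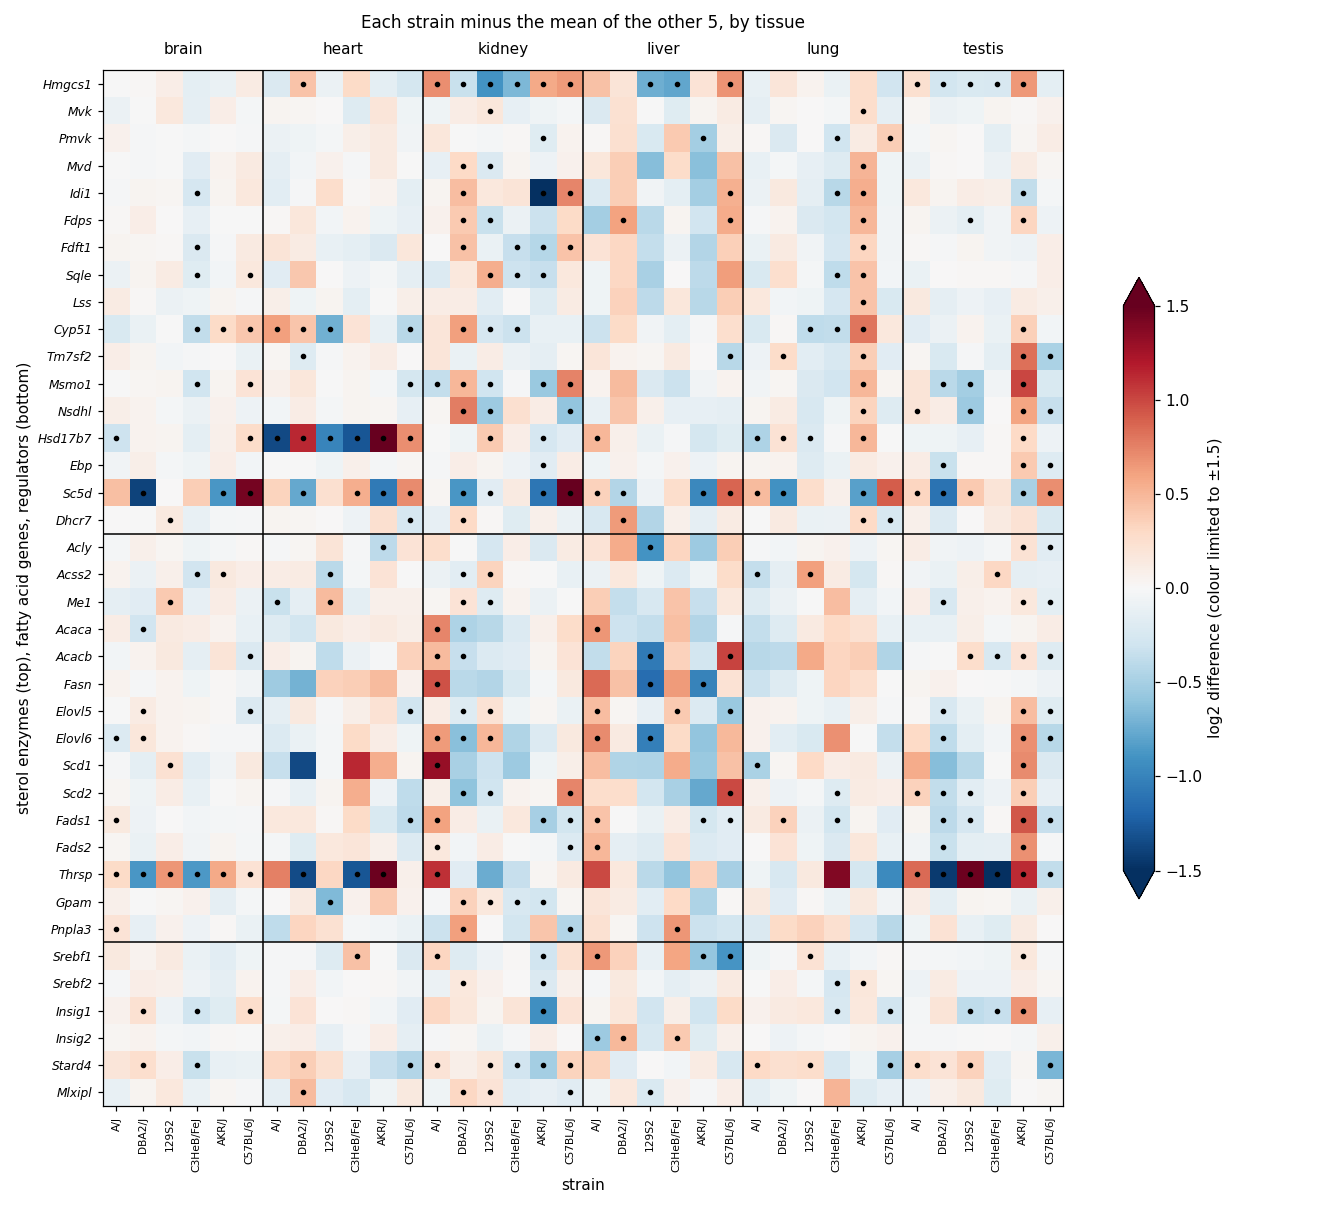
Difference of each strain's mean from the mean of the other 5 strains (log2, colour limited to ±1.5) for 38 genes in 6 organs, with dots where limma's adjusted p was under 0.05. Kidney carries dots in most rows, AKR/J lung has a column of red sterol enzymes, and Hsd17b7 stands out in heart.

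The clearest shift of a whole route was in AKR/J lung, where 13 of 17 sterol enzymes rose and 1 fell, against 7.12% of all genes higher and 5.08% lower. The enzymes that rose ran through the route, from Mvk and Mvd, which act on mevalonate, over Idi1 and Fdps, which make the isoprenoid units, to the squalene enzymes Fdft1 and Sqle, the cyclase Lss and the later ring enzymes Cyp51, Tm7sf2, Msmo1, Nsdhl, Hsd17b7 and Dhcr7. The median difference over the 17 enzymes was 0.37, against -0.01 over all genes.

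Cyp51, the lanosterol demethylase, read 8.96, 9.09 and 9.07 in AKR/J lung, against 7.80, 8.30 and 8.63 as the lowest, median and highest of the other 15 arrays. All AKR/J arrays lay above all others, a difference of 0.80 ± 0.0922 (SE; limma adjusted p = 2.28e-05). Idi1, the isomerase that starts isoprenoid assembly, read 10.40, 10.40 and 10.49 in AKR/J, against 9.49, 9.95 and 10.15, again with no overlap (0.55 ± 0.0679, limma adjusted p = 4.79e-05). Mvd, which decarboxylates mevalonate diphosphate, read 7.97, 8.07 and 8.14 in AKR/J, against 7.35, 7.54 and 7.72. Its groups did not overlap either (0.51 ± 0.0795, limma adjusted p = 0.000393). The other probe sets of Cyp51 (2) and Idi1 (1) gave differences of the same sign, of 0.16 to 0.79 and of 0.29.

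The other 10 increases lay between 0.27 for Mvk and 0.50 for Msmo1. Of these, Lss, Sqle and Tm7sf2 overlapped the other arrays and the rest did not, and the share of all genes without overlap was not counted. The 3 enzymes that missed the test also had positive differences: 0.26 for Hmgcs1, which opens the route (adjusted p = 0.104), 0.13 for the isomerase Ebp (0.253) and 0.12 for Pmvk (0.394), all limma. Sc5d, the desaturase of a late step, fell by 0.82. Srebf2 itself was higher by 0.17 ± 0.048, at 9.86, 9.88 and 9.86 in AKR/J against 9.40, 9.72 and 9.83, with no overlap (limma adjusted p = 0.0302).

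The fatty acid genes of the same lungs did not follow. None of 15 passed limma's test in AKR/J lung, 4 had an unadjusted p under 0.05 (Acss2, Scd2, Fads2 and Gpam) against 23.9% of all genes, and limma with a trended, robust prior also called none. Averaged over the route, AKR/J lung stood 0.32 above the other strains in sterol enzymes (SD over 3 arrays 0.0243) and 0.04 above them in fatty acid genes (SD 0.0133). The alveolar type 2 list, which marks the cells that make surfactant, averaged 14.00 to 14.07 in AKR/J against 13.41 to 13.96, with 3 of 7 markers called higher. It correlated with the sterol mean of lung at 0.77 over strain means but at -0.35 within strains. With the fatty acid mean it gave -0.37 and -0.655. The part of this list in the result was not tested. Without AKR/J lung 3 the count of sterol enzymes that rose was 6.

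**Figure D2:**
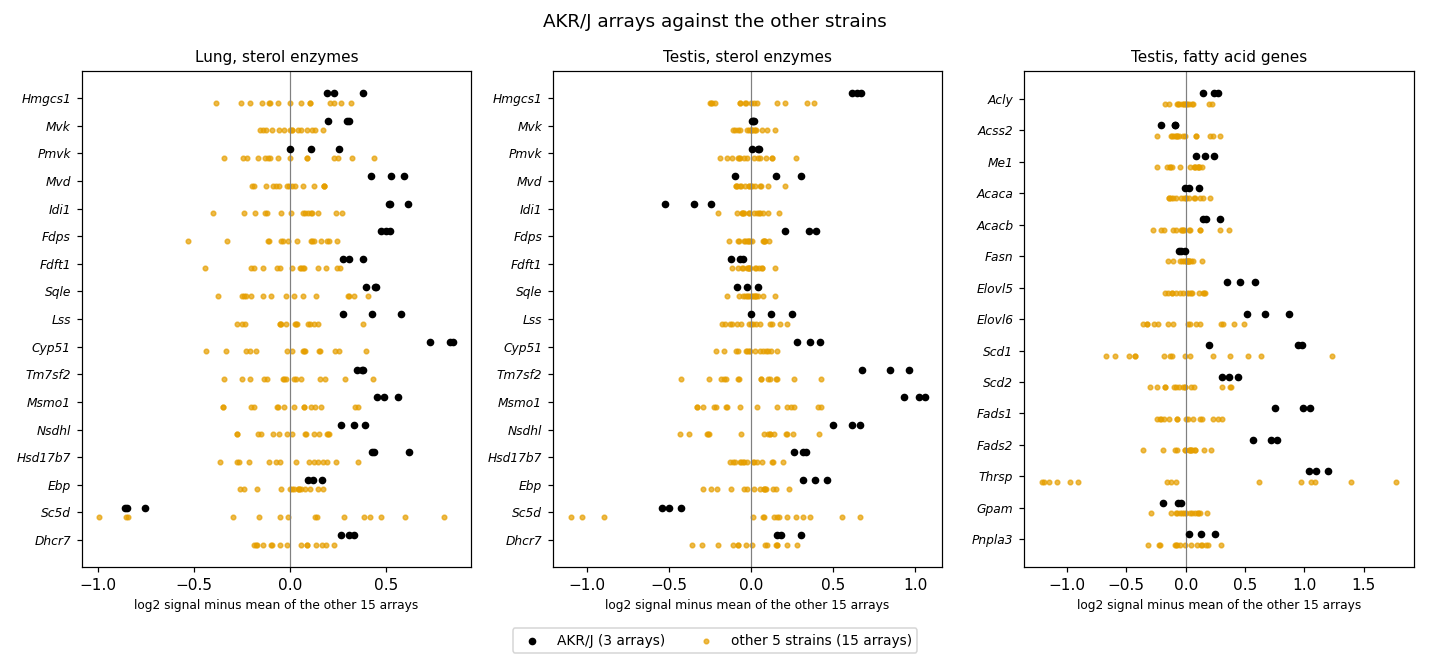
Log2 signal on the 3 AKR/J arrays (black) and the 15 arrays of the other strains (orange), each minus the mean of those 15, for the sterol enzymes in lung and testis and the fatty acid genes in testis. In lung Cyp51 lies furthest right at a mean of 0.80, and in testis Msmo1 and Fads1 lie at 1.00 and 0.93, while Sc5d lies left of 0 in both organs.

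Both routes were higher in AKR/J testis. There 8 of 17 sterol enzymes rose and 2 fell, and 10 of 15 fatty acid genes rose, against 13.1% of all genes higher and 11.1% lower. The median difference was 0.22 over the sterol enzymes, 0.22 over the fatty acid genes and -0.01 over all genes.

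Msmo1, which removes methyl groups from the sterol ring, read 8.81, 8.91 and 8.94 in AKR/J testis, against 7.55, 7.81 and 8.31 as lowest, median and highest of the other 15 arrays. The groups were well separated (1.00 ± 0.0962, limma adjusted p = 4.75e-07), although the second Msmo1 probe set showed only 0.16. Tm7sf2, a sterol reductase, read 8.40, 8.68 and 8.57 in AKR/J, against 7.29, 7.78 and 8.15 (0.83 ± 0.0993, limma adjusted p = 7.41e-06). Hmgcs1 was higher by 0.65. The 2 enzymes that fell were Sc5d, by 0.49 with overlap, and Idi1, at 9.14, 8.96 and 9.24 in AKR/J against 9.28, 9.47 and 9.65, entirely below the others (-0.37 ± 0.0592, limma adjusted p = 0.000147). The remaining enzymes that rose were Cyp51, Ebp, Fdps, Hsd17b7 and Nsdhl, by 0.30 to 0.59.

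Among fatty acid genes, Fads1, a desaturase of polyunsaturated fatty acids, read 9.87, 9.93 and 9.63 in AKR/J testis, against 8.63, 8.88 and 9.18. It exceeded all other arrays (0.93 ± 0.071, limma adjusted p = 2.74e-08), and its second probe set gave 0.31. Fads2, the partner desaturase, read 10.15, 10.20 and 10.00 in AKR/J, against 9.07, 9.47 and 9.64 (0.68 ± 0.0693, limma adjusted p = 9.5e-07). The elongases Elovl6 and Elovl5 also stood clear of the other arrays, at 0.68 and 0.46. Scd1, the stearoyl desaturase, passed narrowly at 0.71 ± 0.244 (limma adjusted p = 0.0433), with 8.39, 9.13 and 9.16 in AKR/J inside the 7.51 to 9.42 of the others, and missed the test in several settings, among them without AKR/J testis 2 (0.205) or 3 (0.202).

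Leydig cells are the testis cells that turn cholesterol into androgen, and their markers moved with these genes. The mean of 5 Leydig markers was 10.60 to 10.69 on the AKR/J arrays, against 9.54 to 10.04 on the other 15, and limma called all 5 higher. Cyp17a1 averaged 12.75 and Hsd17b3 averaged 10.40 in AKR/J, against strain means of 11.69 to 12.13 and 8.60 to 9.34 in the others. A macrophage list was also higher in AKR/J testis (7.78 to 7.96 against 7.02 to 7.56, 8 of 8 called), while the germ cell list ranged only from 13.61 to 13.67 over all testis arrays. The part of either cell type in the result was not tested.

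Fatty acid genes of testis were lower in DBA2/J and C57BL/6J. DBA2/J had 7 of 15 lower, against 9.01% of all genes, with a median difference of -0.24, and C57BL/6J had 7 of 15 lower, against 11.9%, with a median of -0.15. The DBA2/J list held Fads1, Fads2, Scd2, Me1, Elovl5, Elovl6 and Thrsp, and 4 sterol enzymes were lower with them, Sc5d, Msmo1, Ebp and Hmgcs1. The comparisons of strains within an organ share arrays, so that a high AKR/J value lowers the difference of the other strains. The C57BL/6J count was 1 without C57BL/6J testis 12 and 2 when all probe sets of a gene were averaged.

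Kidney had the most members called. Most strains had sterol enzymes called in both directions there, but the rarer direction stayed near or below the share of all genes. AKR/J kidney had 8 sterol enzymes lower, against 5.45% of all genes, and 1 higher, against 8.48%. DBA2/J kidney had 8 higher, against 12.4%, and 2 lower, against 11.6%. For 129S2, 7 were lower, against 16.2%, and 3 higher, against 14.5%. C57BL/6J had 5 higher, against 11%, and 1 lower, against 10%.

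Idi1 in AKR/J kidney read 9.07, 9.18 and 9.09, against 10.35, 10.67 and 11.08 as lowest, median and highest of the other 15 arrays. The gap between the groups was wider than the spread of all the others (-1.58 ± 0.0652, limma adjusted p = 9.16e-12), and the second Idi1 probe set gave -1.85. Insig1, the retention protein that is itself a target of the SREBPs, read 7.58, 7.25 and 7.22 in AKR/J, against 7.997, 8.23 and 8.69, also without overlap (-0.92 ± 0.117, limma adjusted p = 2.05e-05). Hmgcs1 went the other way in the same kidneys, higher by 0.57. The remaining enzymes lower in AKR/J kidney were Sc5d, Msmo1, Fdft1, Sqle, Hsd17b7, Pmvk and Ebp, and Srebf1, Srebf2 and Stard4 were lower as well. The AKR/J count was 4 without AKR/J kidney 3.

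Hmgcs1, the synthase that commits acetyl-CoA units to the route, differed between kidneys of the strains. In 129S2 it read 11.69, 11.57 and 11.58, against 11.70, 12.81 and 12.97 as the lowest, median and highest of the other 15 (-0.90 ± 0.0537, limma adjusted p = 1.12e-09), and all 4 other probe sets had the same sign, from -1.17 to -0.59. C3HeB/FeJ was next lowest at 11.94, 11.70 and 11.75, and DBA2/J followed at 12.08, 12.19 and 11.97. The AKR/J, A/J and C57BL/6J arrays all lay between 12.79 and 12.97. The 129S2 count of lower enzymes was 3 without 129S2 kidney 2 and 4 when the arrays were quantile normalised again.

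Among the DBA2/J increases, Nsdhl, another enzyme that strips methyl groups from the ring, read 11.50, 11.76 and 11.39, against 10.39, 10.89 and 11.36, just above all others (0.77 ± 0.077, limma adjusted p = 9.33e-07). Cyp51 was higher by 0.61 and Mvd by 0.30, both without overlap. In C57BL/6J kidney Msmo1 was higher by 0.75 and Idi1 by 0.73, both above all other arrays.

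The fatty acid genes of kidney were highest in A/J, with 8 of 15 higher, against 7.15% of all genes, and a median difference of 0.26. Scd1 read 13.04, 12.57 and 12.68 in A/J kidney, against 10.31, 11.56 and 11.92 in the other strains. All A/J arrays lay above all others (1.31 ± 0.217, limma adjusted p = 0.000353), and the second probe set gave 1.43. Fasn, the fatty acid synthase, read 11.60, 11.09 and 10.88 in A/J, against 9.54, 10.25 and 10.81, with a narrow gap (0.95 ± 0.192, limma adjusted p = 0.00213). Thrsp, a small nuclear protein tied to lipid synthesis, was higher by 1.10 ± 0.338 (limma adjusted p = 0.0368) with 11.68, 10.86 and 10.45 in A/J against 8.57, 9.94 and 10.91, overlapping, and missed the test in several settings, among them without A/J kidney 1 (0.28) or 2 (0.0923). Acaca, Acacb, Elovl6, Fads1 and Fads2 made up the rest, at 0.16 to 0.73.

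A/J kidney 1 was the highest array for Scd1, Fasn, Thrsp, Acaca, Acacb and Elovl6, and the count without it was 3. The adipocyte list had its highest strain mean in A/J kidney too, at 8.33 to 8.63 against 6.82 to 8.47, with 3 of 6 markers called higher there. Adipoq, the adipocyte hormone, averaged 10.02 in A/J and 8.67 to 9.91 in the other strains, and its F test did not pass (limma adjusted p = 0.137). A brown fat list of 5 markers averaged 7.51 to 8.05 in A/J kidney, with its highest value on A/J kidney 1, against 6.70 to 7.78. It correlated with the fatty acid mean of kidney at 0.88 over strain means and 0.93 within strains. The part of adipose tissue in the result was not tested. DBA2/J kidney had 6 fatty acid genes lower (Acaca, Acacb, Acss2, Elovl5, Elovl6 and Scd2), against 11.6% of all genes, and 3 higher (Gpam, Me1 and Pnpla3), against 12.4%. The lower count was 3 without DBA2/J kidney 2.

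In liver the arrays of a strain differed more from one another than in the other organs. The median residual SD of members was 0.29 in liver and 0.073 to 0.171 elsewhere, so that sizeable strain differences often missed the test. For 129S2 liver, 4 fatty acid genes were lower, against 6.69% of all genes, and all 15 differences were negative with a median of -0.31, against 0.00 over all genes. For A/J liver, 5 were higher, against 7.4% of all genes, with 13 of 15 differences positive and a median of 0.43.

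Fasn read 9.53, 10.07 and 9.62 in 129S2 liver, against 9.63, 10.91 and 12.10 as the lowest, median and highest of the other 15. The groups overlapped (-1.15 ± 0.282, limma adjusted p = 0.0103), and the test was missed without 129S2 liver 2 (0.071) or 4 (0.0624). Acacb, the acetyl-CoA carboxylase that also restrains fatty acid oxidation, read 6.99, 7.43 and 7.20 in 129S2, against 7.68, 8.08 and 9.10, entirely below (-1.05 ± 0.168, limma adjusted p = 0.000241), although its dimmer probe set gave 0.03. Elovl6, which lengthens palmitate, read 8.0007, 8.32 and 8.35 in 129S2, against 8.24, 9.34 and 10.00 (-1.03 ± 0.21, limma adjusted p = 0.00248), and both other probe sets were negative. Acly, the citrate lyase that supplies acetyl-CoA, fell by 0.90.

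The A/J increases were Acaca, Elovl5, Elovl6, Fads1 and Fads2, at 0.43 to 0.71. Fads1 was the one that cleared all other arrays, at 11.80, 11.91 and 11.94 in A/J liver against 11.25, 11.45 and 11.69. In AKR/J liver Fasn and Fads1 were lower, 2 of 15 against 4.5% of all genes. Fasn read 9.63, 10.19 and 9.77 there, against 9.53, 10.91 and 12.10 in the other strains, overlapping (limma adjusted p = 0.0311), and Fads1 fell by 0.27. C57BL/6J liver had 4 sterol enzymes higher, Hmgcs1, Idi1, Fdps and Sc5d, against 9.94% of all genes, and 1 lower, Tm7sf2, against 9.24%. In DBA2/J liver Dhcr7, the reductase of the last step, read 11.04, 10.47 and 10.73, against 9.56, 10.17 and 10.59, overlapping (0.63 ± 0.153, limma adjusted p = 0.00956), and missed the test without DBA2/J liver 1 (0.115).

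Array C3HeB/FeJ liver 2 lay far below its 2 companions for these genes. Its Hmgcs1 read 10.61, with 11.96 and 12.01 on the others, and its Thrsp read 9.62, with 13.19 and 12.92. Hmgcs1 was called lower in C3HeB/FeJ liver (-0.78 ± 0.225, limma adjusted p = 0.0427, range of the other 15 from 11.13 to 12.92), a call that was lost in most settings, and without that array the difference was -0.33 (limma adjusted p = 0.432). Leaving that array out raised the count of sterol enzymes that passed the liver F test to 14.

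In heart few members differed, but 1 did so sharply. Hsd17b7, which reduces the ketone left after each methyl group is removed from the sterol ring, read 8.84, 8.66 and 8.89 in AKR/J heart, 8.39, 8.31 and 8.06 in DBA2/J and 7.85, 7.95 and 7.86 in C57BL/6J. It read 6.13, 6.15 and 6.27 in A/J, 6.20, 6.24 and 6.29 in C3HeB/FeJ and 6.38, 6.71 and 6.37 in 129S2. The 3 higher strains and the 3 lower strains were separated by more than 1 log2 unit with no array between, and the strain means spanned 2.61 (limma F test, adjusted p = 2.43e-12). AKR/J stood 1.79 ± 0.0787 above the other 5 strains (limma adjusted p = 1.51e-10). Both brighter companion probe sets spanned 2.39 and 2.47 with the same 3 strains above the other 3, and the third, near background at 3.89, had the same sign in AKR/J. In the other organs the strain means of Hsd17b7 spanned 0.35 to 0.79.

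Thrsp read 9.59, 9.59 and 10.04 in AKR/J heart, against 6.53, 8.51 and 9.31 in the other strains, above all of them (1.47 ± 0.209, limma adjusted p = 0.000236). Cyp51 read 5.85, 5.65 and 5.83 in 129S2 heart, against 5.91, 6.57 and 7.12, below all of them (-0.72 ± 0.0938, limma adjusted p = 7.28e-05). The other probe sets of Thrsp gave 1.21 and -0.16 in AKR/J heart, and those of Cyp51 gave -0.58 and 0.02 in 129S2 heart. Gpam, which starts glycerolipid assembly, read 10.62, 10.10 and 11.06 in 129S2 heart, against 11.03, 11.26 and 11.65 (-0.67 ± 0.131, limma adjusted p = 0.00337), with -0.67 on its second probe set. Me1, the malic enzyme that supplies NADPH, read 9.99, 9.81 and 10.00 in 129S2 heart, against 9.21, 9.46 and 9.63, above all others (0.47 ± 0.0605, limma adjusted p = 5.22e-05). Without heart 129S2 3 these 129S2 differences were -0.74 for Cyp51, -0.90 for Gpam and 0.44 for Me1, and all passed.

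In brain most differences were small, apart from those of Sc5d and Thrsp described below. C3HeB/FeJ brain had 5 sterol enzymes lower (Cyp51, Fdft1, Idi1, Msmo1 and Sqle), against 2.48% of all genes, by 0.19 to 0.37, and 16 of 17 differences were negative. C57BL/6J brain had 5 sterol enzymes higher (Cyp51, Hsd17b7, Msmo1, Sc5d and Sqle), against 6.04% of all genes. Cyp51 read 8.92, 9.04 and 8.96 in C57BL/6J, against 8.25, 8.54 and 9.03 in the others, of which 1 array, AKR/J brain 3, reached the C57BL/6J values (0.41 ± 0.0725, limma adjusted p = 0.000945). Without the 2 arrays that go against their labels these counts were 6 for C3HeB/FeJ and 5 for C57BL/6J. The C3HeB/FeJ count was 2 without C3HeB/FeJ brain 3, and the C57BL/6J count was 3 without C57BL/6J brain 3.

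Hsd17b7 was lowest in A/J brain, at 8.20, 8.16 and 8.22 against 8.26, 8.49 and 8.81, below all others (-0.31 ± 0.053, limma adjusted p = 0.00133). Among fatty acid genes, Me1 read 9.79, 9.52 and 9.61 in 129S2 brain, against 9.12, 9.23 and 9.56, overlapping (0.40 ± 0.0603, limma adjusted p = 0.000896), and the difference was 0.47 without the 2 doubtful arrays. Acaca was lower in DBA2/J brain at 8.80, 8.71 and 8.77 against 8.88, 9.07 and 9.20 (-0.29 ± 0.0375, limma adjusted p = 5.86e-05), but its other probe set gave 0.08 and the mean of both missed the test (0.225). An oligodendrocyte list, which marks the myelin-forming cells, was lowest in DBA2/J brain, at 10.33 to 10.43 against 10.50 to 10.75. C3HeB/FeJ was next at 10.50 to 10.60, with 10.62 to 10.75 in the remaining strains. The list correlated with the sterol mean at 0.64 over strain means and 0.60 within strains. The macrophage list gave 0.69 and 0.20, the hepatocyte list 0.64 and 0.08, and the proximal tubule list -0.48 and 0.56. The value over strain means was thus not particular to the oligodendrocyte list, and the part of these lists was not tested.

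Some single genes of lung also differed. Acss2, which activates acetate, read 9.62, 9.51 and 9.46 in 129S2 lung, against 8.59, 8.92 and 9.32, above all others (0.62 ± 0.0926, limma adjusted p = 0.000266), with the same sign on both other probe sets. Scd1 read 13.03, 13.20 and 13.11 in A/J lung, against 13.31, 13.58 and 14.09, below all others (-0.48 ± 0.107, limma adjusted p = 0.00802), and missed the test without A/J lung 1 (0.0655). Fads1 read 10.75, 10.88 and 10.92 in DBA2/J lung, against 10.19, 10.54 and 10.71 (0.35 ± 0.0635, limma adjusted p = 0.00167), but its other probe set gave -0.40. No direction is therefore given for Fads1 in DBA2/J lung. C3HeB/FeJ lung had 4 sterol enzymes lower (Cyp51, Idi1, Pmvk and Sqle), against 6.71% of all genes, with 16 of 17 differences negative, and its adipocyte list averaged 8.17 to 9.83 against 6.80 to 8.10, with 6 of 6 markers called higher, whose part was not tested.

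Sc5d and Hsd17b7 were the members that passed the F test in all 6 organs, and the share of all genes that did so was not counted. On its brightest probe set Sc5d had its highest strain mean in C57BL/6J in each organ and its 2 lowest in DBA2/J and AKR/J. The widest difference was in kidney, where it read 9.10, 9.16 and 9.31 in C57BL/6J, against 6.55, 7.39 and 7.79 (1.96 ± 0.0634, limma adjusted p = 1.69e-13). In kidney the other probe sets gave 1.19 and 0.69, and in liver they gave 0.54 and 0.44 beside 0.87 on the brightest. In brain, by contrast, the brightest gave 1.43 and the others -0.06 and 0.26, and in lung 0.91 stood beside -0.13 and 0.12. The probe sets thus disagreed on Sc5d in brain and lung, as they did in heart (0.71 beside -0.18 and 0.01), and whether sequence differences under the probes contribute was not tested.

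In AKR/J, Sc5d was lower in heart, at 5.37, 5.56 and 5.45 against 5.57, 6.69 and 7.12 (-1.06 ± 0.105, limma adjusted p = 3.61e-06). It was lower in liver too, at 11.10, 11.24 and 11.23 against 11.37, 12.23 and 12.80 (-0.96 ± 0.104, limma adjusted p = 4.79e-06). AKR/J arrays lay below all others in both organs, and the other probe sets had the same sign in liver and gave -0.06 and 0.03 in heart. In AKR/J brain the values were 7.53, 8.72 and 7.58, of which 8.72 is the array that goes against its label, and the difference was -0.87 with it and -1.31 without both doubtful arrays. In testis the lowest strain was DBA2/J, at 6.91, 7.04 and 6.84 against 7.40, 8.09 and 8.60, below all others (-1.11 ± 0.07, limma adjusted p = 2.26e-09).

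Thrsp followed another order of strains. DBA2/J and C3HeB/FeJ were its 2 lowest strains in brain, heart and testis. In testis it read 4.53, 4.41 and 4.39 in C3HeB/FeJ, against 4.46, 6.58 and 7.38 (-1.62 ± 0.105, limma adjusted p = 5.72e-09), the overlap being with DBA2/J at 4.46 to 4.70. In brain it read 7.94, 7.84 and 7.88 in DBA2/J, against 7.79, 8.89 and 9.25 (-0.88 ± 0.0603, limma adjusted p = 3.57e-08). A second Thrsp probe set followed in these organs, with -0.51 in C3HeB/FeJ testis and -0.67 in DBA2/J brain, while the third stayed within 0.23 between strains there. In kidney, liver and lung the F test of Thrsp did not pass (limma adjusted p = 0.0913, 0.408 and 0.443), and the SD within a strain reached 2.21 in C3HeB/FeJ lung.

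**Figure D3:**
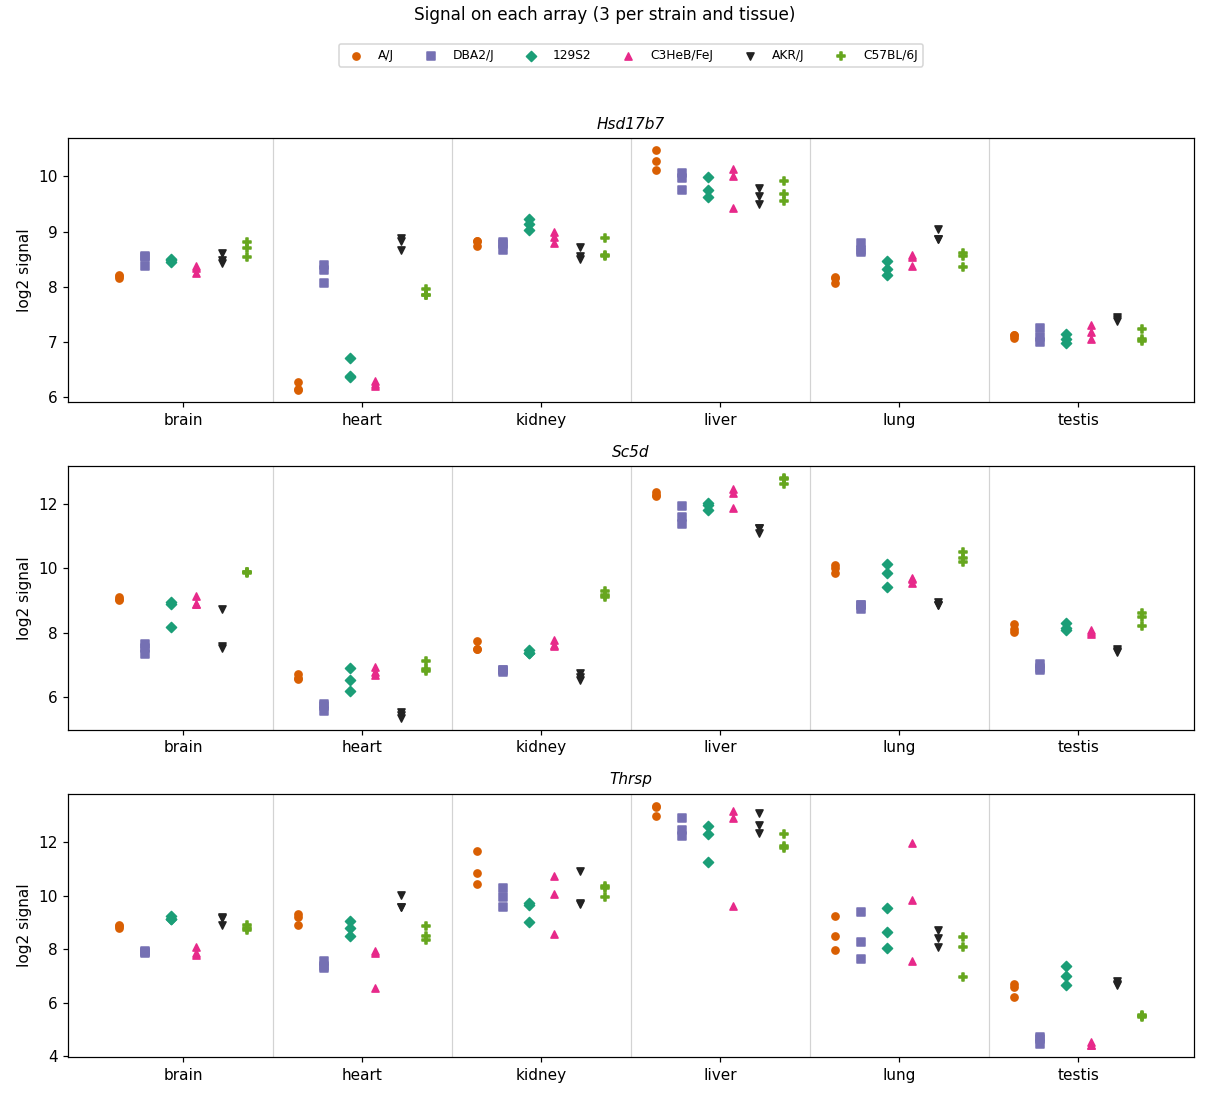
Log2 signal of Hsd17b7, Sc5d and Thrsp on every array, with organs along the axis and strains by colour and symbol. Hsd17b7 splits into 3 high and 3 low strains in heart, Sc5d is highest in C57BL/6J and lowest in DBA2/J and AKR/J, and Thrsp drops to between 4.39 and 4.70 in DBA2/J and C3HeB/FeJ testis.

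Among the regulators the widest range of strain means was that of Srebf1 in liver, at 1.28. It read 9.83, 9.62 and 9.50 in C57BL/6J against 9.78, 10.63 and 11.34 (-0.89 ± 0.177, limma adjusted p = 0.00133), with 1 array inside the range of the others. The same C57BL/6J livers had Acacb and Scd2 higher and Elovl5 and Fads1 lower. Srebf2 never spanned more than 0.35 between strain means. Insig2, the INSIG form known in mouse liver for its fasting response, passed in liver alone, with strain means of 11.59 ± 0.0643 in DBA2/J and 10.73 ± 0.0571 in A/J (SD, n = 3 each).

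Stard4, a carrier of cholesterol between membranes, passed in 5 organs. In C57BL/6J testis it read 6.59, 6.62 and 6.68, against 7.01, 7.39 and 7.53, below all others (-0.68 ± 0.0513, limma adjusted p = 1.81e-08). In C57BL/6J lung it read 9.58, 9.70 and 9.35, against 9.53, 10.09 and 10.32, overlapping (-0.50 ± 0.0785, limma adjusted p = 0.000403). C3HeB/FeJ brain was lower as well, at 8.24, 8.27 and 8.31 against 8.33, 8.63 and 8.80 (-0.34 ± 0.0684, limma adjusted p = 0.0063), which missed the test without C3HeB/FeJ brain 1 (0.0553). All other probe sets of Stard4 had the same sign in these 3 contrasts. Mlxipl was higher in DBA2/J heart at 7.60, 7.90 and 8.12 against 6.82, 7.44 and 7.79 (0.47 ± 0.135, limma adjusted p = 0.0264), overlapping, and missed the test without DBA2/J heart 2 (0.102) or 3 (0.211).

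Some members were nearly level between strains. The narrowest ranges of strain means were 0.08 for Pmvk and for Insig2 in brain, 0.10 for Fasn in brain and 0.12 for Acly in brain, Mvk in testis and Ebp in liver. Mvk, which phosphorylates mevalonate, reached 0.37 at most. A wide range alone did not pass the test: Scd1 spanned 2.06 in heart and was not called there. Lss, the cyclase, passed in kidney, lung and testis, with ranges of at most 0.65, and Dhcr7 passed in kidney, liver and lung, with at most 0.90. Pnpla3, a lipid droplet protein, passed in brain, heart and kidney, with its widest range of 0.89 in kidney.

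The differences between strains varied with the organ. A limma model of all arrays, in which arrays of 1 animal formed a random block (estimated correlation 0.0174), passed the strain by organ interaction for 38 of 38 members, against 72.4% of all genes, with a median F of 4.27 over members and 2.67 over all genes. The largest F values among members belonged to Hsd17b7 (44.1, limma adjusted p = 5.17e-34), Fads1 (13.9, adjusted p = 3.35e-18) and Cyp51 (11.3, adjusted p = 8.9e-16). Cyp51 was highest in A/J in heart, in AKR/J in lung and testis, in DBA2/J in kidney and in C57BL/6J in brain. Sc5d also passed on its brightest probe set (F = 5.82, limma adjusted p = 5.66e-09), although C57BL/6J was its highest strain in each organ. Its probe sets disagreed in brain, heart and lung, and the model includes both brain arrays that go against their labels. Kidney, liver and testis of C57BL/6J came from other animals by number than its brain, heart and lung. The part of this change of animals in the interaction was not tested.

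The routes were then set against each other. Each array was given the mean of its centred sterol enzymes and the mean of its centred fatty acid genes, and the 6 strain means of these were correlated as a description. The points share arrays, RNA preparations and the normalization. Pearson's r was 0.93 in testis (Spearman's rho 0.83), 0.67 in liver (0.43), 0.42 in brain (0.60), 0.20 in kidney (0.09), -0.27 in lung (-0.49) and -0.29 in heart (-0.14). Whether these values differ between organs was not tested. Leaving out the 2 strains farthest from the median sterol level gave 0.63 in testis, 0.99 in liver, 0.95 in brain, 0.13 in kidney, -0.65 in lung and -0.16 in heart.

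In testis AKR/J was highest on both routes and DBA2/J lowest on both, at differences of 0.23 and 0.36 against -0.17 and -0.28 from the other strains. In liver 129S2 and AKR/J were low on both, at -0.24 and -0.45 and at -0.27 and -0.38. DBA2/J kidney combined higher sterol enzymes with lower fatty acid genes, at 0.17 and -0.15. The DBA2/J heart means had the same signs, at 0.11 and -0.22. Only 10 of 17 sterol differences were positive there, with a median of 0.03, and 8 of 15 fatty acid differences were negative. C3HeB/FeJ lung had the reverse signs at -0.19 and 0.21, with 16 of 17 sterol differences negative and 10 of 15 fatty acid differences positive. Its positive fatty acid mean leaned on lung C3HeB/FeJ 3, at 0.67, with 0.13 on array 1 and -0.28 on array 2. Of its 15 fatty acid genes, 0 were called higher and 2 lower, against 6.12% and 6.71% of all genes. Without lung C3HeB/FeJ 3 the lung correlation over strain means was 0.26, and without heart 129S2 1 the heart correlation was 0.08, so neither negative sign held. The routes had the same sign in 5 of 6 strains in kidney, liver and testis, 4 in brain, 3 in heart and 2 in lung. The sterol means include Sc5d, whose probe sets disagreed in brain, heart and lung. Against the other sterol enzymes over strain means, Sc5d had r of -0.04 in brain, -0.91 in heart, -0.69 in lung and -0.21 in testis. It had 0.37 in kidney and 0.38 in liver. In DBA2/J brain the sterol mean was -0.06, although 11 of 17 differences were positive. Correlations of the routes without Sc5d were not calculated.

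Arrays of the same strain were compared by their 18 deviations from strain means in each organ. Here r was 0.80 in lung (rho 0.77), 0.79 in liver (0.59), 0.75 in testis (0.68), 0.72 in brain (0.72), 0.53 in kidney (0.56) and 0.08 in heart (0.01). Leaving out the 2 arrays farthest from the median sterol deviation gave 0.73 in lung, 0.55 in liver, 0.60 in testis, 0.71 in brain, 0.64 in kidney and 0.11 in heart. The liver value was 0.33 without C3HeB/FeJ liver 2, the lung value was 0.74 without C3HeB/FeJ lung 3, and the brain value was 0.58 without both arrays that go against their labels.

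**Figure D4:**
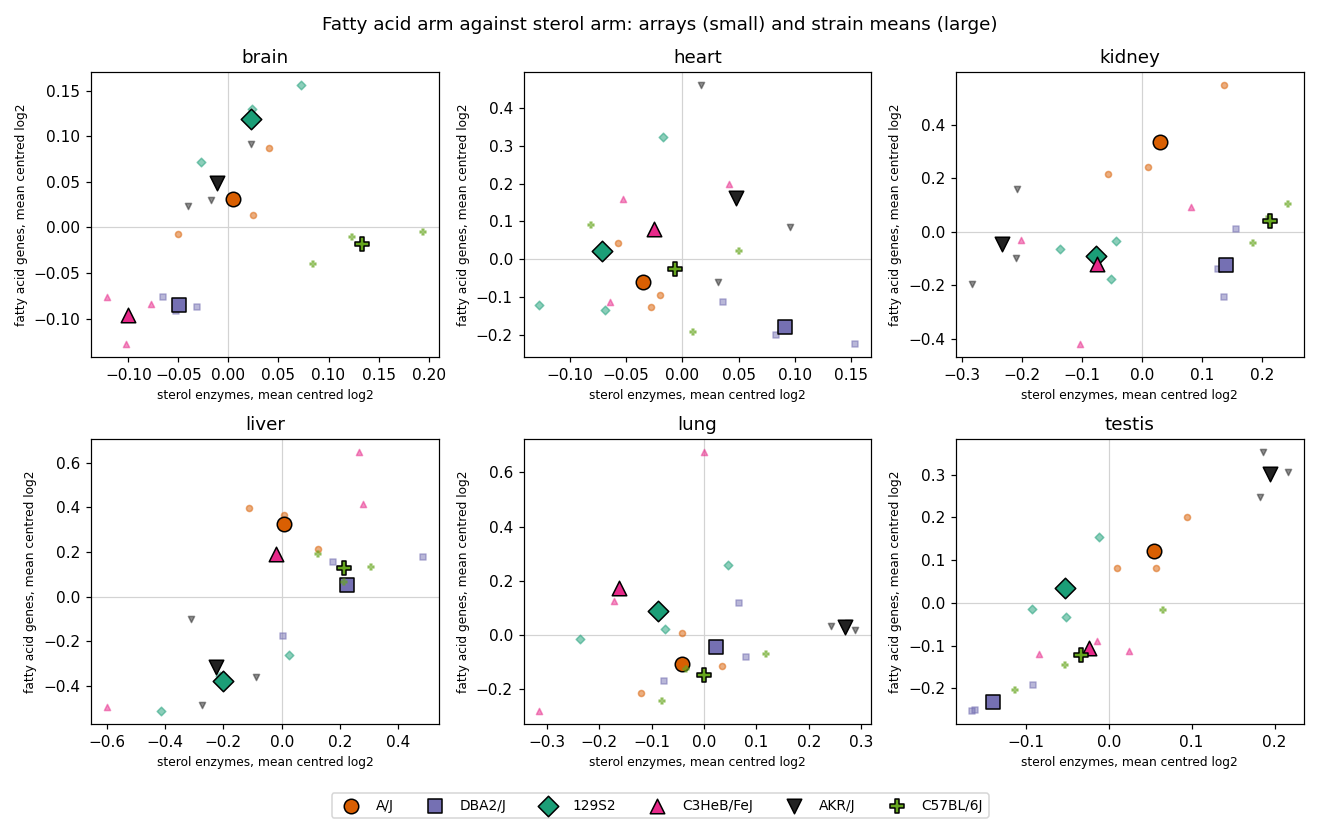
Mean centred log2 of the 15 fatty acid genes against that of the 17 sterol enzymes in each organ, small symbols for arrays and large ones for strain means. The strain means rise together in testis (r = 0.93) and liver (0.67), while AKR/J lung lies far right with a fatty acid mean near 0.

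Marker lists of other cell types moved with the fatty acid genes in some organs. The correlation of the fatty acid mean with the adipocyte list over strain means and within strains was 0.86 and 0.86 in lung, 0.85 and 0.84 in kidney and 0.79 and 0.60 in heart. Without lung C3HeB/FeJ 3 the lung values were 0.26 over strain means and 0.71 within strains. The correlation was 0.39 and 0.28 in liver, where the adipocyte list averaged 4.91. Other lists also moved with the fatty acid mean. The oligodendrocyte list gave 0.73 and 0.62 in heart, where it averaged 5.14, 0.84 and 0.53 in lung, and 0.26 and -0.41 in kidney. The skeletal muscle list gave 0.73 and 0.82 in lung, -0.39 and 0.00 in heart, and -0.09 and 0.15 in kidney. In testis the Leydig list followed both routes, with 0.95 for the sterol enzymes and 0.88 for the fatty acid genes over strain means and 0.73 and 0.74 within strains. The macrophage list followed them too, with 0.90 and 0.74 over strain means and 0.58 and 0.685 within strains. The adipocyte list of testis gave 0.88 and 0.68, and 0.33 and 0.57. The hepatocyte list gave -0.65 and -0.825, and -0.47 and -0.09. The strains also differed in clock output: Dbp, a factor that cycles over the day, averaged 11.78 in A/J kidney and 7.86 in DBA2/J kidney, and 11.59 in A/J liver and 5.63 in C57BL/6J liver. In lung, where the C57BL/6J animals bore other numbers than in liver, Dbp averaged 11.51 in C57BL/6J and 11.83 in A/J. Over strain means, a list of 17 clock genes correlated with the sterol mean at -0.72 in kidney and -0.79 in liver, and in testis at 0.88 with the sterol and 0.91 with the fatty acid mean. Within strains these values were -0.30, 0.51, 0.14 and 0.10. In testis the strain means of the clock list ran only from 6.95 in C57BL/6J to 7.09 in AKR/J. The list averages genes such as Dbp and Arntl together without separating their directions, so its mean is no reading of the time of day. No source used here gives the time of day of collection, and the part of these lists in the strain differences was not tested.

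**Figure D5:**
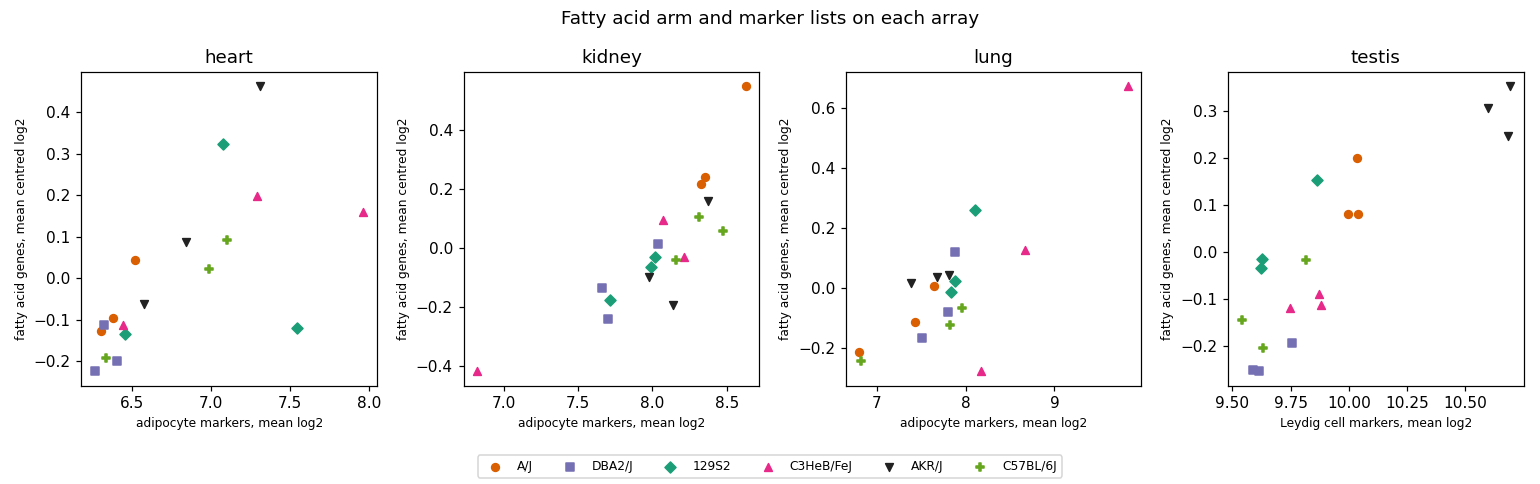
Mean centred log2 of the fatty acid genes against the mean log2 of 6 adipocyte markers in heart, kidney and lung and of 5 Leydig cell markers in testis, 1 point per array. Lung C3HeB/FeJ 3 lies far right at 9.83, and the 3 AKR/J testis arrays lie apart at 10.60 to 10.69.

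Other genes of the same pathways were taken from lists and not for how they moved. Of 10 further sterol genes measured (uptake, transport, efflux and SREBP processing), the F test passed for 7 in kidney, 6 in liver, 5 in brain, 5 in lung, 3 in heart and 3 in testis. The shares of all genes called were 46.1%, 31.6%, 23.1%, 32.5%, 21% and 40.5% in these organs, so the testis count lay below that of all genes. Mylip, a ubiquitin ligase of lipoprotein receptors, and Nr1h3, a sterol-sensing nuclear receptor, had the widest ranges in kidney, at 0.99 and 0.59. In liver they were Npc1, the lysosomal cholesterol exporter, at 0.92 and Lbr at 0.65. Of 15 further fatty acid genes, 11 passed in kidney, 11 in liver, 11 in testis, 7 in heart, 4 in lung and 3 in brain, the lung and brain counts lying below the 32.5% and 23.1% of all genes. In liver the elongase Elovl3 spanned 3.76 and the phosphatidate phosphatase Lpin1 2.56, both wider than any member there.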

How the data were processed

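The deposited values were log2 signals made by the authors with RMA (background correction, quantile normalization and summary per probe set), per the submitters' processing notes, which give no version; which arrays were normalized together is not given. Of 45101 probe sets, 34945 name 1 gene and were used. Those left out were 64 controls, 932 that name several genes and 9160 that name none. Arrays carry no detection calls here, and their number limits the precision. R 4.3.3 with limma 3.58.1 was fitted to the 18 arrays of each organ (F test over 6 strains, and each strain minus the mean of the other 5), with Benjamini-Hochberg adjustment over all 18193 genes and a threshold of 0.05. The scripts were tested on simulated data. Per organ, the text names in full the 3 called members with the largest absolute difference of each route and 1 regulator, and for the interaction the 3 largest F values and the members that passed in every organ; other members named were chosen after their values were seen. Alternatives covered the prior, probe sets, low signal, normalization, arrays that stand apart, blocks and each array left out. The members and lists were chosen with earlier results of these data known. Promoters came from RefSeq (GRCm38.p6). Same-numbered animals of different strains share only a number: the median correlation of their deviations was -0.01 to 0.072.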

Additional observations from a re-analysis of the deposited data

Results flagged for a closer look

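For 4 of the genes reported above the differences between strains themselves differed between organs, by limma's test of the strain by organ interaction. The change of animals between organs in C57BL/6J limits these results too. Hsd17b7 had an adjusted p of 5.17e-34 (limma), with strain means that spanned 2.61 in heart and 0.35 in testis, and AKR/J highest in both. Fads1 had an adjusted p of 3.35e-18 (limma), with a range of 1.10 in testis and 0.19 in brain. Cyp51 had an adjusted p of 8.9e-16 (limma), with a range of 1.11 in heart, where A/J was highest, and 0.44 in testis, where AKR/J was highest. Sc5d had an adjusted p of 5.66e-09 (limma), with a range of 2.54 in kidney and 1.48 in heart, and C57BL/6J highest in both.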

How the results depend on the processing

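Median subtraction and the filter on low signal moved none of the 32 and 27 counts and correlations followed by over 1.5 times or the spread between arrays. Limma with a trended, robust prior gave 8 higher sterol enzymes in C57BL/6J brain (5 in the report) and 5 sterol enzymes by the liver F test (10). The mean of all probe sets of a gene gave 3 lower sterol enzymes in C3HeB/FeJ brain (5), 2 lower fatty acid genes in C57BL/6J testis (7) and a correlation of the routes of 0.621 in brain (0.418), and turned Fads1 in DBA2/J lung to -0.025 (limma adjusted p = 0.874). Quantile normalization repeated within organs gave 4 lower sterol enzymes in 129S2 kidney (7). Without the arrays that stand apart the routes correlated at 0.262 in lung (-0.27). The correlations without single arrays within strains and with the adipocyte list were chosen after seeing the data. The cause of these changes was not tested.

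Leaving out 1 array at a time moved 14 of 32 such results. Sterol enzymes passing the F test ranged from 5 to 9 in brain and from 6 to 14 in liver, and fatty acid genes from 3 to 8 in lung. Higher sterol enzymes ranged from 6 to 13 in AKR/J lung and from 3 to 6 in C57BL/6J brain. Lower sterol enzymes ranged from 2 to 6 in C3HeB/FeJ brain, from 3 to 8 in 129S2 kidney and from 4 to 10 in AKR/J kidney. Fatty acid genes ranged from 3 to 8 higher in A/J kidney, from 3 to 8 lower in DBA2/J kidney and from 1 to 8 lower in C57BL/6J testis. The correlation of the routes ranged from -0.597 to 0.081 in heart, from 0.08 to 0.347 in kidney and from -0.348 to 0.262 in lung. The lowest counts came without AKR/J 2 in liver and C3HeB/FeJ 3 in brain for the F test, C57BL/6J 3 and C3HeB/FeJ 3 in brain for the strain counts, A/J 1 in lung and the arrays named in the report elsewhere.

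With the animal number as a replicate block, 0 of 26 counts moved and 1 named call was lost, that of Hmgcs1 in C3HeB/FeJ liver (limma adjusted p = 0.0501); the numbers pair no animals across strains. With 3 arrays per strain, liver differences under the spread between arrays could not be resolved.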
